A study of Homo sapiens with 6 samples.

Results

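The transcripts described here are 41 genes of autophagy and of the lysosome, chosen by name and found by symbol among the 60564 genes of the count table, each in 1 row. They comprise 28 genes of autophagosome formation, 11 genes of lysosomal membrane and lumen proteins, and the paired transcription factors TFEB and TFE3. Autophagy encloses cytoplasm or damaged organelles in a double membrane, the autophagosome, which then fuses with the lysosome so that acid hydrolases can degrade the cargo. A kinase complex around ULK1 starts the process, a lipid kinase complex around BECN1 marks the site, ATG9 and ATG2 proteins supply membrane, and a conjugation system attaches the ATG8 proteins (the LC3 and GABARAP families) to it. TFEB and TFE3 drive many lysosomal genes and are controlled largely by phosphorylation and by their place in the cell, so their mRNA levels do not report their activity. Mitophagy, the autophagy of mitochondria that follows PINK1 and Parkin signalling, uses the same machinery, and the series' title names SFXN2 as a substrate of Parkin.

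RNA of HEK293 cells, an established line from human embryonic kidney, was sequenced from 3 wild-type samples (titled NC_HA) and 3 samples with stable overexpression of SFXN2 (titled OE_HA). SFXN2 encodes sideroflexin 2, a mitochondrial membrane carrier. The labels name no treatment, no promoter or vector for SFXN2, no empty-vector control and no clone, and do not say whether replicates were separate cultures. All p-values are thus set against the spread among these 6 samples, and that spread may be technical. The libraries held 32121527 to 41217867 counts in wild type and 40043248, 52958006 and 59963713 counts with overexpression, in the order of the replicates. SFXN2 itself stood at 27.8 to 44.7 CPM (a gene's counts scaled to a common library total by the TMM method) in wild type and 1523 to 1909 CPM with overexpression, so every library matched its label. Among genes typical of HEK293, VIM ranged from 699 to 841 CPM and PAX2, a kidney developmental factor, from 4.11 to 6.51 CPM. The summed level of 6 immune markers was 1.34 to 2.01 CPM in wild type and 1.21 to 4.53 CPM with overexpression, with PTPRC at 0.164 CPM or less in every library. The highest immune sums were those of overexpression replicates 2 and 3, mainly CD68 (3.62 and 2.05 CPM), whose protein is itself lysosomal. The 6 fibroblast markers summed to 17.0 to 23.1 and 13.8 to 23.4 CPM, mostly COL1A1, and the 4 endothelial markers to 1.48 to 2.41 and 1.88 to 3.06 CPM.

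None of the 41 genes passed the threshold between overexpression and wild type. All 41 were expressed above the low-count filter in both groups, with 152 to 18033 counts per library. In edgeR's quasi-likelihood test, 0 of 41 had a Benjamini-Hochberg adjusted p below 0.05, and the smallest was 0.93. Over all 18797 tested genes 0.0106% passed, which is 2 genes. DESeq2 also called 0 of the 41 (smallest adjusted p 0.79) against 0.0479% of all genes. So did limma-voom (against 0.016%) and edgeR with a block for the replicate number (against 0.00532%). On the authors' log2 table, limma called 0 of the 41 as well, against 0.0335% of its genes. An unadjusted edgeR p below 0.05 was found for 4 of the 41, namely ATG4B, ATG9A, CTSD and ATG101, or 9.76% against 4.76% of all tested genes. Of these 1 was higher and 3 were lower with overexpression, against 2.38% and 2.38% of all genes. With the block the number was 5 of the 41, against 8.32%. Leaving out wild-type replicate 1, 2 or 3 gave 2, 5 and 1 such members, against 7.73%, 4.9% and 2.88% of all genes. Leaving out overexpression replicate 1, 2 or 3 gave 7, 0 and 0, against 11.8%, 1.9% and 1.59%. In bulk RNA, fewer cells that express a gene and less of its RNA per cell cannot be told apart.

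Gene by gene, the 95% intervals limited the size of a difference, given the spread among these 6 samples, which may be technical. The intervals were not widened for the number of genes. Every one of the 41 had a 95% interval of the log2 fold change within -1 to 1, so a change of 2-fold or more lay outside all of these intervals, against 72.6% of all tested genes with such an interval. For 37 of the 41 the interval also lay within a 1.5-fold change in either direction. The other 4 were CTSD, NEU1, TFEB and WIPI1. The lowest bound belonged to TFEB (-0.74) and the highest to NEU1 (0.70). The median SE of the members was 0.12 on the log2 scale, against 0.17 for all tested genes. These contrasts were not matched for level, and all tested genes include genes with fewer counts than any of the 41.

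**Figure D1:**
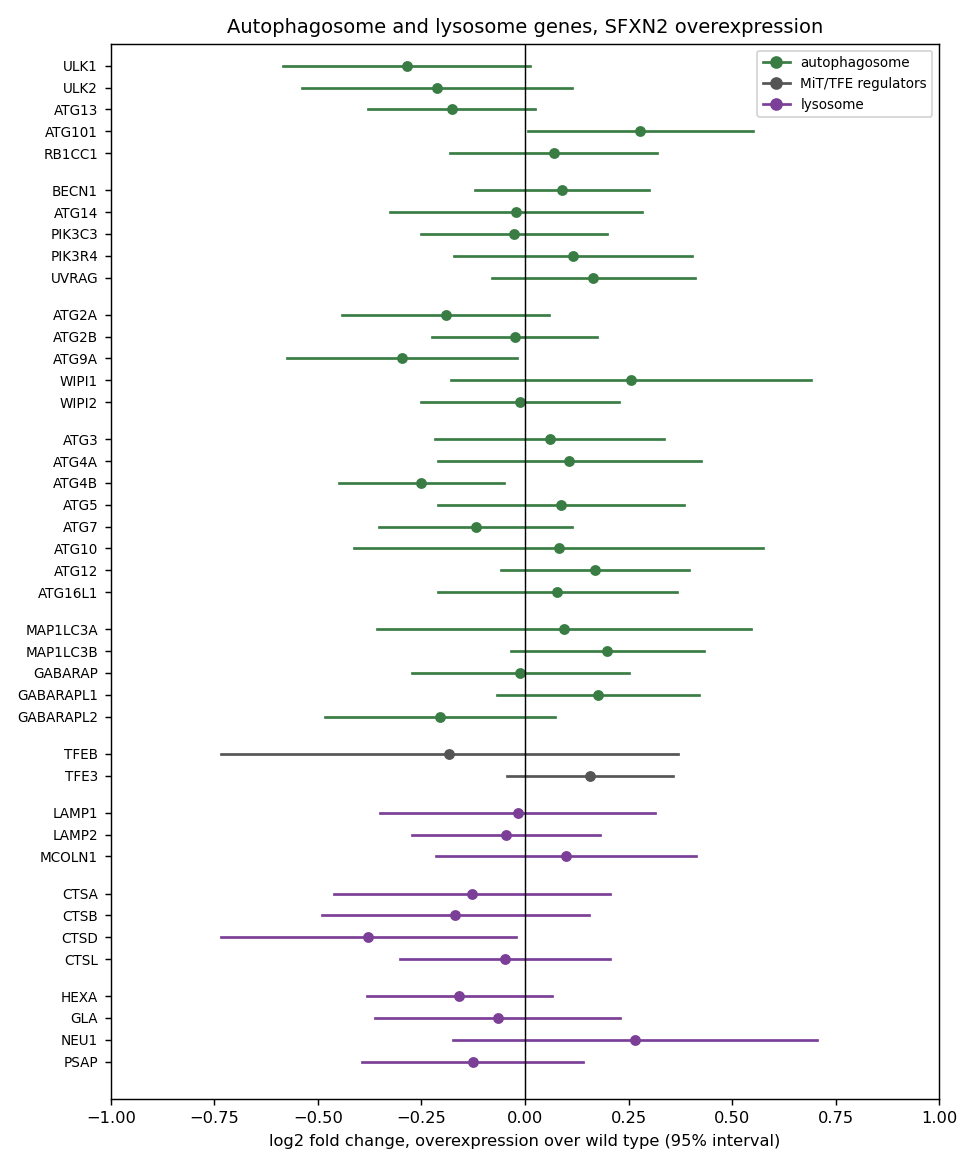
Log2 fold change (overexpression over wild type, edgeR) of the 41 genes as points with 95% intervals as lines, by role and coloured by compartment. All intervals lie within -1 to 1. CTSD lies farthest to the left (-0.38) and ATG101 farthest to the right (0.28).

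The medians of the autophagosome and lysosome genes lay on opposite sides of 0, both close to it. The median log2 fold change was 0.064 for the 28 autophagosome genes, with 15 above 0 and 13 below, and -0.066 for the 11 lysosome genes, with 2 above 0 and 9 below. The median over all tested genes was 0.0060, with 48.8% below 0. The autophagosome median turned to -0.0086 when wild-type replicate 3 was left out, so its side of 0 rests on that library. The lysosome median shrank to -0.0050 without wild-type replicate 1, with 7 of 11 below 0, and 6 of 11 were below 0 without overexpression replicate 2. Scaling by library size alone gave 19 above 0 and 9 below for the autophagosome genes, and 3 above and 8 below for the lysosome genes. The summed level of the autophagosome genes was 1481 ± 51.7 CPM in wild type and 1455 ± 64.4 CPM with overexpression (SD, 3 samples per group). For the lysosome genes it was 1094 ± 55.5 CPM in wild type and 1025 ± 103 CPM with overexpression (SD, 3 samples per group). Both differences were smaller than the larger SD of the pair.

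The lysosome genes were lowest in a pair of overexpression libraries. The 11 lysosome genes had median log2 levels, relative to the wild-type mean, of 0.093, -0.018 and 0.012 in the wild-type libraries. With overexpression the medians were 0.024, -0.23 and -0.088. Overexpression replicates 2 and 3, the deepest libraries, stood lowest, and replicate 1 stood within the wild-type range. Against the wild-type library of the same number, each overexpression library was lower. The corresponding medians of the 28 autophagosome genes were 0.033, 0.057 and -0.075, then 0.057, -0.014 and 0.012. Here the lowest library was wild-type replicate 3, which gave the lowest of the 6 values for 11 of the 28 genes. Depth moves with the replicates named, and its part in these values was not tested. The coefficient of variation over all 6 libraries ran from 3.38% for ATG2B to 22.5% for NEU1, with a median of 10.3%.

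**Figure D2:**
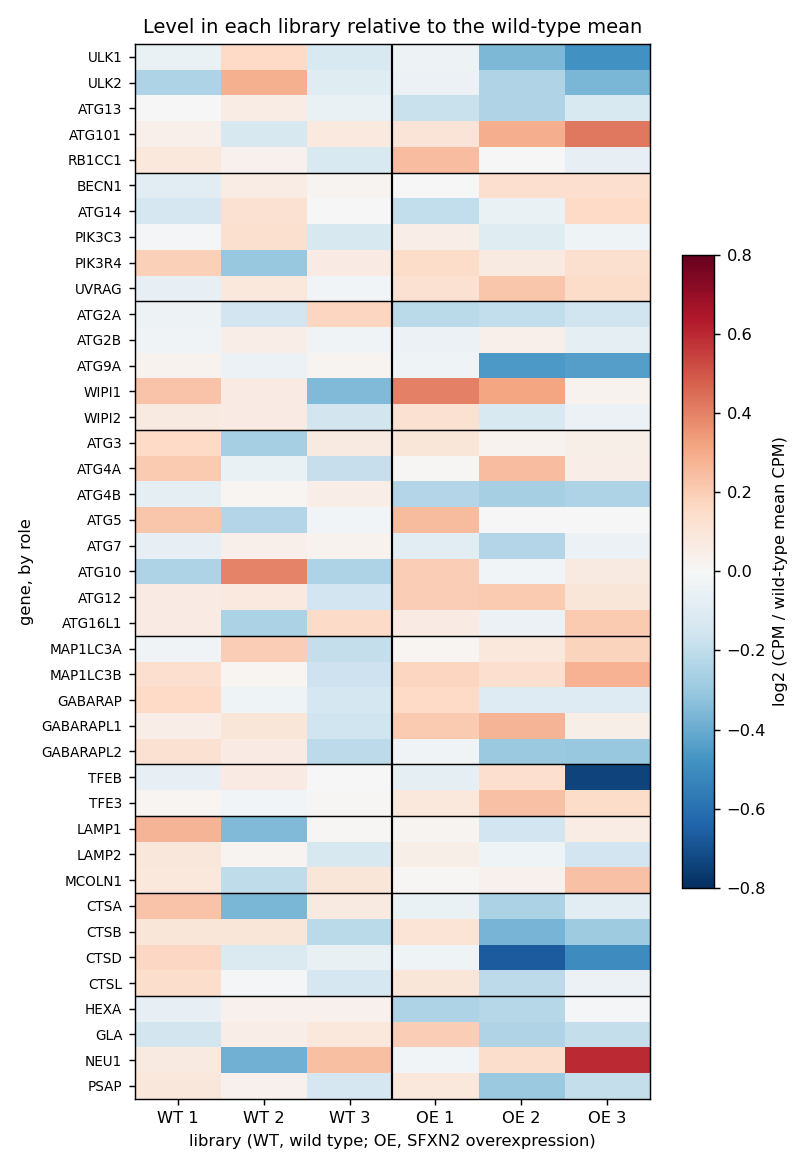
Log2 ratio of each gene's CPM to its wild-type mean (colour) in the 6 libraries (columns) for the 41 genes (rows, by role). CTSD, CTSB and PSAP are low in overexpression replicates 2 and 3 and not in replicate 1, and NEU1 is highest in overexpression replicate 3. In wild-type replicate 3, CTSB and PSAP also lie below their wild-type mean.

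The initiation complex showed values on both sides of 0. ULK1 is the kinase that receives signals from mTORC1 and AMPK, and ULK2 is its close relative. ULK2 had 104, 149.7 and 115 CPM in wild type and 119, 104 and 95.4 CPM with overexpression (replicates 1, 2 and 3 in order, here and below). Wild-type replicate 2 stood above the rest and the groups overlapped, with a log2 fold change of -0.21 (95% interval -0.54 to 0.11, SE 0.15). ULK1 had mean levels of 50.7 ± 5.29 and 41.6 ± 6.76 CPM (SD, 3 samples per group), with the lowest values in overexpression replicates 2 and 3 (39.4 and 36.2 CPM) and a log2 fold change of -0.29 (95% interval -0.58 to 0.013). ATG13, the adaptor that holds the complex together (ENSG00000175224; chromosome 11, 46617527 to 46674818, plus strand; all positions are in GRCh38), had 85.8, 89.8 and 82.9 CPM in wild type and 76.2, 73.0 and 79.3 CPM with overexpression. All 3 overexpression values lay below all wild-type values, and the log2 fold change was -0.18 (95% interval -0.38 to 0.024, SE 0.090). ATG101, which stabilizes ATG13 (ENSG00000123395; chromosome 12, 52069246 to 52077494, plus strand), had 26.3, 23.4 and 27.0 CPM in wild type and 27.4, 31.2 and 34.3 CPM with overexpression. The groups did not overlap, although overexpression replicate 1 exceeded the highest wild-type value by little, and the log2 fold change was 0.28 (95% interval 0.0064 to 0.55, SE 0.12), the highest of the 41. RB1CC1, the large scaffold also called FIP200, had 87.8 ± 6.41 and 92.1 ± 10.7 CPM (SD, 3 samples per group). ATG13 and ATG101, which bind each other in the complex, thus had estimates of opposite sign, neither past the threshold (edgeR adjusted p = 0.93 for both).

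In the lipid kinase complex, values were close in both groups. BECN1, its regulatory core, had 78.5, 87.0 and 84.6 CPM in wild type and 83.0, 91.3 and 91.6 CPM with overexpression. Overexpression replicate 1 fell inside the wild-type range, and the log2 fold change was 0.088 (95% interval -0.12 to 0.30, SE 0.094). PIK3C3, the catalytic subunit, PIK3R4, its anchoring partner, and ATG14, which directs the complex to autophagosomes, had log2 fold changes of -0.027, 0.12 and -0.022. UVRAG, which replaces ATG14 in the form of the complex that acts in endosome traffic (ENSG00000198382; chromosome 11, 75815167 to 76143195, plus strand), had 21.5, 23.9 and 22.1 CPM in wild type and 24.5, 26.2 and 24.9 CPM with overexpression. Each overexpression library stood above each wild-type library, with a log2 fold change of 0.16 (95% interval -0.080 to 0.41, SE 0.11).

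Among the membrane supply genes ATG9A stood out by its libraries. ATG9A is the scramblase whose vesicles seed the autophagosome (ENSG00000198925; chromosome 2, 219219380 to 219229717, minus strand). Its level was 78.7, 74.8 and 78.5 CPM in wild type and 75.5, 56.4 and 57.0 CPM with overexpression. Overexpression replicates 2 and 3 stood well below all other libraries, whereas replicate 1 lay inside the wild-type range. The log2 fold change was -0.30 (95% interval -0.57 to -0.021, SE 0.12). It was -0.45 without overexpression replicate 1 (edgeR adjusted p = 0.23), which still did not pass. ATG2A, one of the 2 lipid transfer proteins that feed the growing membrane (ENSG00000110046; chromosome 11, 64894546 to 64917248, minus strand), had 36.2, 33.5 and 42.0 CPM in wild type and 32.0, 32.5 and 33.3 CPM with overexpression. The groups did not overlap but nearly met, at a log2 fold change of -0.19 (95% interval -0.44 to 0.058, SE 0.11). Its relative ATG2B was the least variable of the 41 genes, with 91.3 ± 2.99 and 89.8 ± 3.56 CPM (SD, 3 samples per group). WIPI2, which binds the lipid made by PIK3C3 and recruits ATG16L1, had the highest CPM of the role at 97.6, 96.8 and 83.7 CPM in wild type and 101, 85.2 and 89.7 CPM with overexpression, with overlapping groups and a log2 fold change of -0.012 (95% interval -0.25 to 0.23). WIPI1 was the lowest of the role at 9.15 ± 1.83 and 10.9 ± 1.43 CPM (SD, 3 samples per group).

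The conjugation machinery held the smallest unadjusted p of the 41, that of ATG4B. ATG4B is the main protease that trims ATG8 proteins before conjugation and releases them afterwards (ENSG00000168397; chromosome 2, 241637213 to 241673857, plus strand). It had 55.3, 58.7 and 60.4 CPM in wild type and 49.4, 48.4 and 48.9 CPM with overexpression. The overexpression libraries lay within about 1 CPM of each other and below every wild-type library. The log2 fold change was -0.25 (95% interval -0.45 to -0.050, SE 0.089), and the unadjusted edgeR p of 0.019 became 0.93 after adjustment over all genes. The estimate ranged from -0.29 to -0.22 when each library was left out in turn. ATG4A, its paralog, had 18.2 ± 2.55 and 19.6 ± 1.76 CPM (SD, 3 samples per group), with overlapping groups. ATG12, the ubiquitin-like protein that is joined to ATG5 (ENSG00000145782; chromosome 5, 115828200 to 115841858, minus strand), had 44.3, 44.6 and 38.1 CPM in wild type and 48.4, 48.8 and 45.3 CPM with overexpression. All overexpression values exceeded all wild-type values, by a log2 fold change of 0.17 (95% interval -0.059 to 0.39, SE 0.10). The other members were ATG7, the activating enzyme, ATG3 and ATG10, the conjugating enzymes, and ATG5 and ATG16L1, which form the ligase with ATG12. Their log2 fold changes ran from -0.12 (ATG7) to 0.086 (ATG5), and the groups overlapped for each. ATG10 was the least abundant of the role, at 6.92 ± 1.90 and 7.33 ± 0.568 CPM (SD, 3 samples per group).

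The ATG8 family, whose members coat the autophagosome and bind cargo receptors, gave small estimates of both signs. MAP1LC3B, the LC3 protein most used as an autophagosome marker (ENSG00000140941; chromosome 16, 87383995 to 87404779, plus strand), had 67.7, 62.3 and 55.0 CPM in wild type and 69.6, 67.8 and 74.9 CPM with overexpression. The groups did not overlap, but the lowest overexpression value exceeded the highest wild-type value by little, and the log2 fold change was 0.20 (95% interval -0.035 to 0.43, SE 0.10). GABARAP, the most abundant member, had 145, 127 and 118 CPM in wild type and 145, 121 and 121 CPM with overexpression. Its groups overlapped almost wholly, with a log2 fold change of -0.012 (95% interval -0.27 to 0.25). GABARAPL1 and GABARAPL2 had log2 fold changes of 0.18 (95% interval -0.067 to 0.42) and -0.20 (95% interval -0.48 to 0.073), and MAP1LC3A of 0.093 (95% interval -0.36 to 0.54).

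Levels per kilobase of exon, which allow genes to be compared, put GABARAP at 45.2 ± 1.40% in wild type and 44.6 ± 1.55% with overexpression of the summed ATG8 family level (SD, 3 samples per group). GABARAPL2 made up 25.5 ± 0.771% in wild type and 22.0 ± 0.876% with overexpression, and MAP1LC3B 16.1 ± 0.0558% in wild type and 18.5 ± 1.79% with overexpression (SD, 3 samples per group). The GABARAPL2 share lay between 24.8 and 26.3% in wild type and between 21.5 and 23.1% with overexpression, without overlap. The MAP1LC3B share lay between 16.0 and 16.1% and between 16.7 and 20.3%, also without overlap. The GABARAPL1 share lay between 10.5 and 11.6% in wild type and between 11.8 and 13.9% with overexpression, again without overlap. The GABARAP and MAP1LC3A shares overlapped between groups. These shares were not tested. They depend on the exon lengths. With the full GENCODE annotation GABARAP made up 59.4 ± 1.46% in wild type and 58.3 ± 1.76% with overexpression. GABARAPL2 made up 15.1 ± 0.556% in wild type and 12.9 ± 0.454% with overexpression, and MAP1LC3B 12.0 ± 0.0496% in wild type and 13.7 ± 1.39% with overexpression. With these lengths the GABARAPL2 and MAP1LC3B shares did not overlap between groups either, but the counts behind them are the same. The GABARAPL1 share did overlap with these lengths, at 10.1 to 11.3% in wild type and 11.2 to 13.3% with overexpression. Shares within a family do not move independently. Shares of the TFEB and TFE3 pair did not overlap between groups either, with both sets of lengths. With the first lengths TFEB made up 6.79 to 7.60% in wild type and 4.00 to 6.72% with overexpression. Shares of the ULK1 and ULK2, ATG2A and ATG2B, WIPI1 and WIPI2, and ATG4A and ATG4B pairs overlapped between groups. How often such shares fail to overlap in gene families beyond these was not examined. Among paralogs, ULK2 exceeded ULK1 per kilobase (67.0% of the pair in wild type), WIPI2 exceeded WIPI1 (80.3%) and ATG4B exceeded ATG4A (68.5%, or 58.6% with the full annotation). ATG2A and ATG2B were close, at 46.7 ± 3.48% in wild type and 43.9 ± 1.23% with overexpression for ATG2A (SD, 3 samples per group).

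**Figure D3:**
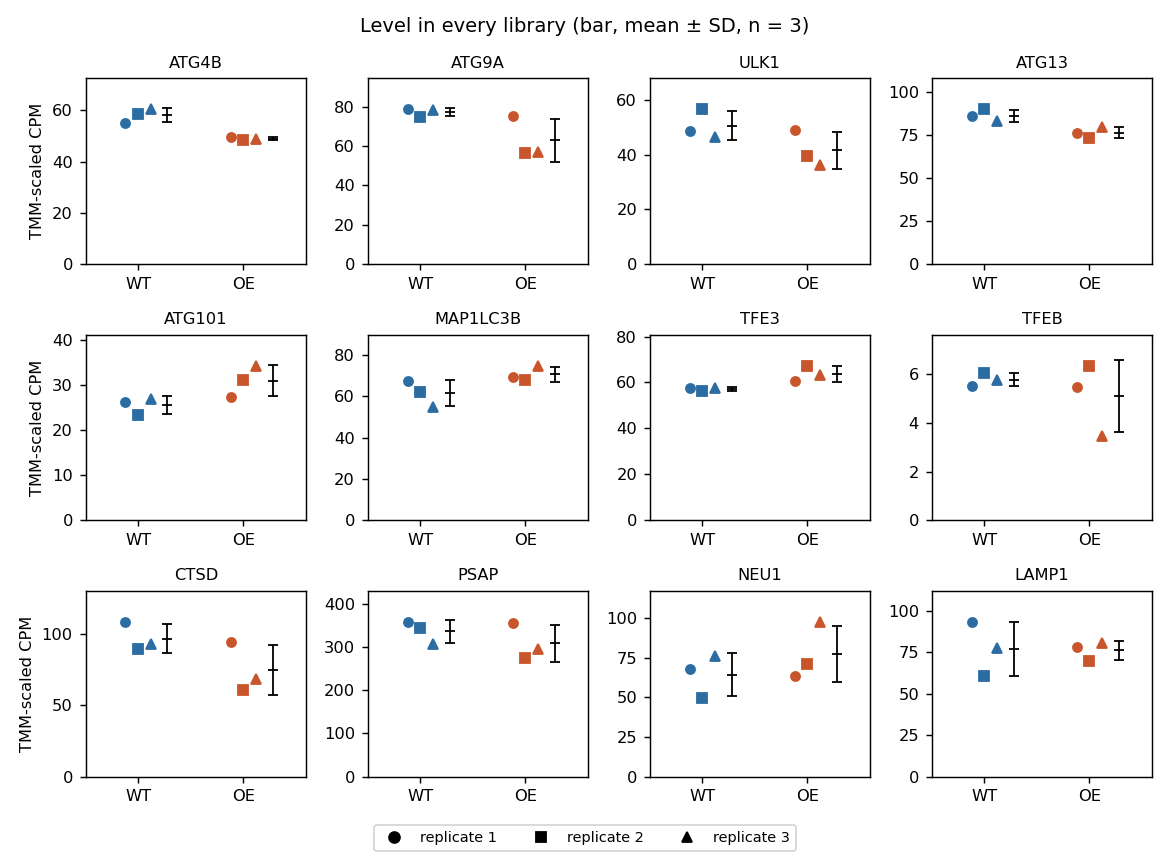
TMM-scaled CPM of 12 of the genes in each library, with symbols for the replicate number and bars for mean ± SD (n = 3). The ATG4B groups do not overlap (48.4 to 49.4 CPM with overexpression), while for ATG9A and CTSD overexpression replicate 1 stands with wild type.

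TFE3 was the abundant transcription factor of the pair. It had 57.8, 56.2 and 57.4 CPM in wild type and 60.5, 67.3 and 63.3 CPM with overexpression (ENSG00000068323; chromosome X, 49028726 to 49043486, minus strand). Each overexpression library stood above the narrow wild-type range, at a log2 fold change of 0.16 (95% interval -0.044 to 0.36, SE 0.090). TFEB had 5.51, 6.05 and 5.77 CPM in wild type and 5.48, 6.35 and 3.45 CPM with overexpression (ENSG00000112561; chromosome 6, 41683978 to 41736259, minus strand). Overexpression replicate 3 alone was low, the other 5 libraries lay between 5.48 and 6.35 CPM, and the log2 fold change of -0.18 (95% interval -0.74 to 0.37, SE 0.25) turned to 0.028 without that library. Per kilobase of exon TFE3 was 16.7 ± 0.239 and 18.6 ± 1.00 CPM and TFEB 1.29 ± 0.0605 and 1.14 ± 0.333 CPM (wild type and overexpression, SD, 3 samples per group), so that TFE3 made up 92.8 ± 0.405% in wild type and 94.3 ± 1.51% with overexpression of the pair.

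TFEB and TFE3 bind the E-box CACGTG, and lysosomal promoters are known for an extended form of it with GT before and AC after the E-box (the CLEAR motif). RefSeq promoters (GRCh38.p14) were on hand for 34 of the 41 genes, 1 start per gene, and the 250 bases before the start were searched. Both motifs read the same on either strand, and the shorter lies within the longer. CACGTG was present in 5 of 7 lysosome genes, 2 of 25 autophagosome genes and neither transcription factor, against 6.34% of all 35116 RefSeq promoters. The lysosome genes LAMP2, CTSB, HEXA and PSAP had no promoter on hand. As lysosomal promoters were known for the motif beforehand, this contrast is background and not a result of these data. Among the 34, an exact match to the extended form was present in MCOLN1 alone, against 0.308% of all promoters. Copies that differ from it in the flanking bases were not counted, so the other genes may hold looser forms of the CLEAR motif. The lysosome genes with CACGTG were LAMP1 with 5 copies, MCOLN1 and CTSA with 2 each, and CTSD and NEU1 with 1 each. GLA and CTSL had none. The stretches that hold these copies are shown in lower case, read 5′ to 3′ toward the gene, with CACGTG in capitals, because they let the values below be read against the sites. All end at the last base before the RefSeq start except that of NEU1, which lies from 145 to 86 bases before it. RefSeq starts differ from the GENCODE gene positions given elsewhere. By the GENCODE positions the stretches of CTSD, CTSA and ATG3 lie inside the gene, and that of ATG14 lies partly inside it.
LAMP1 (chr13:113297034-113297238, plus strand): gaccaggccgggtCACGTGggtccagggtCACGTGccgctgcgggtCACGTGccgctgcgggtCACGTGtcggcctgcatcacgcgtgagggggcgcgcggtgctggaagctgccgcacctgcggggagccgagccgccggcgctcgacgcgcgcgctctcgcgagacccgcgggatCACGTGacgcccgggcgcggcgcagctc
MCOLN1 (chr19:7522564-7522623, plus strand): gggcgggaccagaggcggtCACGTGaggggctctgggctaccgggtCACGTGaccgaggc
CTSA (chr20:45891275-45891334, plus strand): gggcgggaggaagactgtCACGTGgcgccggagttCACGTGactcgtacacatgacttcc
CTSD (chr11:1763928-1763987, minus strand): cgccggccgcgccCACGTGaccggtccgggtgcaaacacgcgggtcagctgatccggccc
NEU1 (chr6:31862907-31862966, minus strand): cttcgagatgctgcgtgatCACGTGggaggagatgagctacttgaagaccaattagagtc
ATG3 (chr3:112561963-112562022, minus strand): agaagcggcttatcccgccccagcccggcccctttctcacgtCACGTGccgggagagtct
ATG14 (chr14:55411831-55411890, minus strand): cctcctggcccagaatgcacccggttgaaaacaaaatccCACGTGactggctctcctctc

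**Figure D4:**
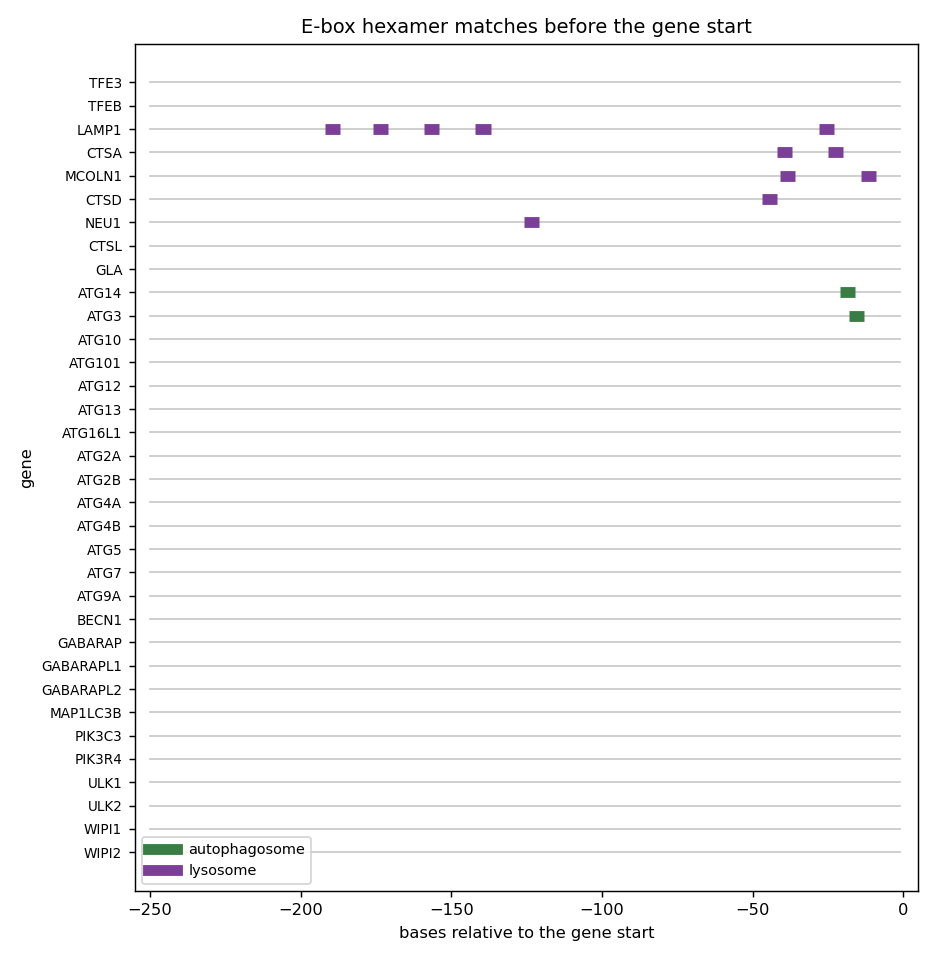
Positions of CACGTG (blocks) in the 250 bases before the RefSeq gene start (x axis) of the 34 genes with a RefSeq promoter (rows). The 5 lysosome genes with a match carry 11 copies, and ATG3 and ATG14 carry 1 each.

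Of the 5 lysosome genes with CACGTG, MCOLN1 and NEU1 had estimates above 0 and LAMP1, CTSA and CTSD below it, none past the threshold. MCOLN1, the calcium channel of the lysosomal membrane whose promoter holds the extended motif, had 17.1, 14.0 and 17.3 CPM in wild type and 16.3, 16.5 and 19.0 CPM with overexpression, with overlapping groups and a log2 fold change of 0.10 (95% interval -0.22 to 0.41, SE 0.14). LAMP1, an abundant membrane glycoprotein and the gene with most copies, had 77.2 ± 16.4 and 76.2 ± 5.86 CPM (SD, 3 samples per group). Its wild-type libraries ran from 60.5 to 93.3 CPM and enclosed all overexpression values. LAMP2, the related glycoprotein needed for fusion and chaperone-mediated autophagy, had 119.6, 114 and 103 CPM in wild type and 116, 109 and 101 CPM with overexpression, also overlapping, with a log2 fold change of -0.046 (95% interval -0.27 to 0.18). NEU1, the lysosomal sialidase, had 67.7, 49.3 and 76.3 CPM in wild type and 63.6, 71.0 and 97.6 CPM with overexpression. It was the most variable of the 41, with its highest value in overexpression replicate 3 and its lowest in wild-type replicate 2, and the log2 fold change was 0.27 (95% interval -0.17 to 0.70, SE 0.19). ATG3 and ATG14 had log2 fold changes of 0.059 and -0.022.

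All 4 cathepsins had estimates below 0, led by CTSD. CTSD, the main aspartic protease of the lysosome (ENSG00000117984; chromosome 11, 1752752 to 1764573, minus strand), had 108, 89.3 and 92.7 CPM in wild type and 94.3, 61.0 and 68.2 CPM with overexpression. Replicate 1 of the overexpression group lay inside the wild-type range, and replicates 2 and 3 lay below every other library. Each overexpression value was lower than the wild-type value of the same number. The log2 fold change was -0.38 (95% interval -0.73 to -0.023, SE 0.16), the lowest of the 41, and the unadjusted edgeR p of 0.039 did not pass adjustment (0.93). With the replicate block the unadjusted edgeR p of CTSD was 0.0019 and the adjusted one 0.60. Left out in turn, the libraries gave values from -0.59 (without overexpression replicate 1, edgeR adjusted p = 0.23) to -0.26. CTSB and CTSL, cysteine proteases, had log2 fold changes of -0.17 (95% interval -0.49 to 0.15) and -0.048 (95% interval -0.30 to 0.21). CTSA, a carboxypeptidase that also protects NEU1 and beta-galactosidase, had -0.13 (95% interval -0.46 to 0.21). Relative to the wild-type mean, the cathepsin medians were 0.15, -0.067 and -0.10 in the wild-type libraries and 0.029, -0.31 and -0.19 in the overexpression libraries.

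PSAP, the precursor of the saposins that help hydrolases reach their lipid substrates, was the most abundant of the 41. It had 358, 344 and 307 CPM in wild type and 356, 274 and 295 CPM with overexpression, or 117 ± 9.11 and 107 ± 14.8 CPM per kilobase of exon (wild type and overexpression, SD, 3 samples per group). Overexpression replicate 1 was again level with wild type and replicates 2 and 3 were lower, replicate 3 close to wild-type replicate 3. The log2 fold change was -0.13 (95% interval -0.39 to 0.14, SE 0.12). HEXA, the alpha subunit of beta-hexosaminidase, had 70.8, 76.0 and 75.9 CPM in wild type and 62.5, 63.3 and 73.7 CPM with overexpression. The groups overlapped through overexpression replicate 3, and the log2 fold change was -0.16 (95% interval -0.38 to 0.065, SE 0.10). GLA, alpha-galactosidase A, had 131 ± 11.0 and 125 ± 21.6 CPM (SD, 3 samples per group) and a log2 fold change of -0.066 (95% interval -0.36 to 0.23). PSAP, GLA, GABARAP and CTSD held the first 4 places per kilobase in wild type, and TFEB, ATG10 and MAP1LC3A the last 3 of 41. With lengths from the full GENCODE annotation in place of its basic transcripts the same 4 genes held the first 4 places, with GABARAP ahead of GLA. Among the last 3, WIPI1 then took the place of MAP1LC3A.

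**Figure D5:**
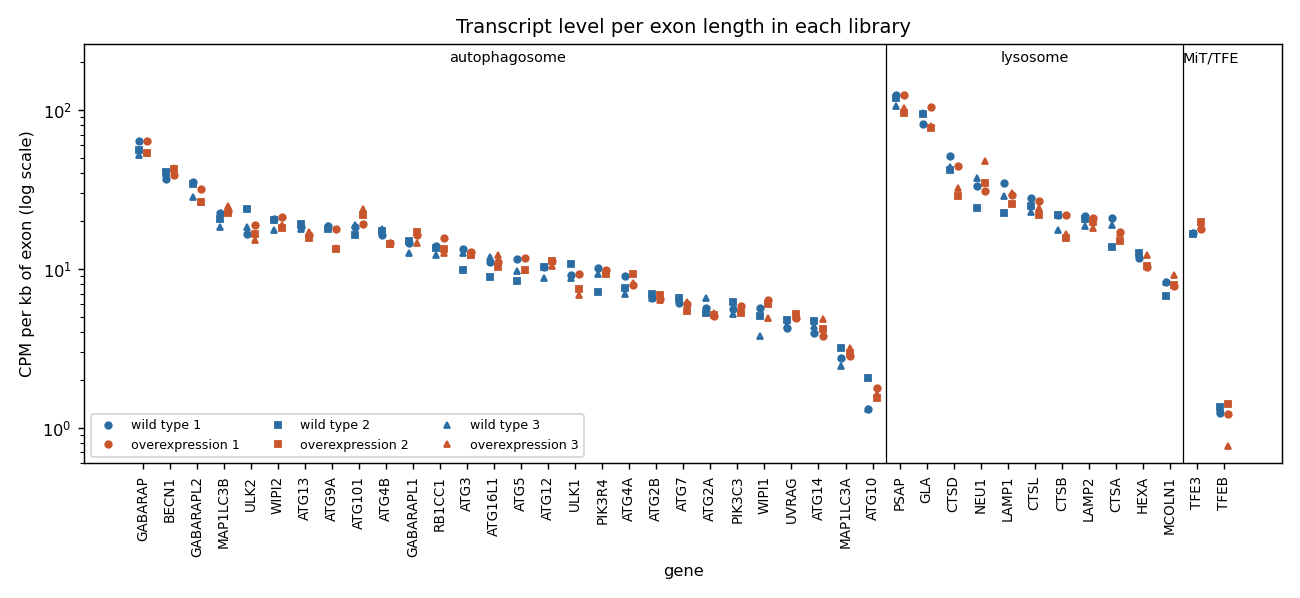
CPM per kilobase of exon (log axis) of the 41 genes in each library (blue, wild type; orange, overexpression), ordered by the wild-type mean within each compartment. PSAP at 117 and TFEB at 1.29 in wild type mark the range, and the libraries of both groups lie close together for most genes.

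Across the 41, groups that did not overlap were found for 8 genes. ATG13, ATG2A and ATG4B were lower in every overexpression library, 7.32% of the members against 4.25% of all tested genes. ATG101, UVRAG, ATG12, MAP1LC3B and TFE3 were higher in every one, 12.2% against 4.91%. No lysosome gene was among them (0 of 11). Reads of overlapping genes cannot be told apart in an unstranded library, and 19 of the 41 share exon bases with another annotated gene, 17 of them with one on the opposite strand. They include ATG13 (HARBI1), ATG4B (THAP4), ATG12 (AP3S1), MAP1LC3B (FBXO31), UVRAG and ATG101 with opposite-strand genes, ATG9A with a same-strand gene model, and CTSD, HEXA and GABARAP with both. Annotated pseudogenes are named after 6 of the 41, namely BECN1, ATG3, ATG4A, ATG12, MAP1LC3B and CTSL, so their counts are uncertain.

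Other genes of the pathway were counted from 6 further lists with 124 genes, of which 121 were tested, and none passed in edgeR (0 of 121) or DESeq2 (0). At an unadjusted edgeR p below 0.05 there were 7 of 121 (5.79%). Of those, 6 belonged to the 40 tested genes of further lysosomal enzymes and transporters, all lower with overexpression, against 2.38% of all genes. In that list 30 of 40 had estimates below 0 (75.0% against 48.8% of all tested genes), the median was -0.10, and 7 genes were lower in every overexpression library (17.5% against 4.25%) and 0 higher in every one. TPP1, a serine protease that trims tripeptides, had the smallest p, with 61.5, 72.4 and 74.0 CPM in wild type and 54.6, 53.4 and 55.1 CPM with overexpression. All overexpression values lay below all wild-type values. The log2 fold change of TPP1 was -0.35 (95% interval -0.57 to -0.13, SE 0.10), with an edgeR adjusted p = 0.93 and a DESeq2 adjusted p = 0.40. The others included LGMN (legumain), CTSC and CTSZ (cathepsins) and SGSH (a sulfamidase), at log2 fold changes of -0.25, -0.30, -0.30 and -0.30. They are named after their values were seen. The library medians of this list were 0.056, 0.039 and -0.045 in the wild-type libraries and -0.033, -0.17 and -0.15 in the overexpression libraries, so the same 2 overexpression libraries were lowest as for the 11 lysosome genes, and each overexpression library was below the wild-type library of its number. Leaving out wild-type replicate 1 left 24 of 41 below 0, with 9 at an unadjusted edgeR p below 0.05 against 7.73% of all genes. Leaving out overexpression replicate 1 left 35 of 41 below 0, also with 9 such genes, against 11.8%. Without wild-type replicate 2 or 3 it was 33 of 40 and 34 of 41, with 4 and 3 such genes, against 4.9% and 2.88%. Without overexpression replicate 2 or 3 it was 26 of 40 and 28 of 41, with 1 such gene each, against 1.9% and 1.59%. With the replicate block 8 of 40 had such a p, against 8.32%.

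In the remaining 5 lists the medians lay closer to 0, and each changed its side of 0 when some single library was left out. The gene with the smallest p of each list is named. The 17 genes of the V-ATPase, the pump that acidifies the lysosome, had a median of 0.027 with 6 below 0, and their lowest library was wild-type replicate 2 (-0.13 relative to the wild-type mean). Without that library the V-ATPase median was -0.038 with 12 of 17 below 0, without overexpression replicate 1 it was -0.019, and without wild-type replicate 1 it was 0.12. ATP6V1A, its catalytic subunit, had 59.6, 55.9 and 53.3 CPM in wild type and 65.0, 64.1 and 63.2 CPM with overexpression and a log2 fold change of 0.19 (95% interval -0.013 to 0.39). The 12 autophagy receptors, which link cargo to ATG8 proteins, had a median of -0.015 with 7 below 0. NCOA4, the receptor for ferritin, had 159.5, 163 and 155 CPM in wild type and 167, 175 and 190.0 CPM with overexpression and a log2 fold change of 0.15 (95% interval -0.053 to 0.36). The 20 further autophagosome and fusion genes had a median of 0.011 with 8 below 0. VMP1, a scramblase of the endoplasmic reticulum, had 78.6, 72.9 and 78.2 CPM in wild type and 87.7, 83.7 and 83.3 CPM with overexpression and a log2 fold change of 0.15 (95% interval -0.049 to 0.35). The 28 genes of nutrient signalling at the lysosome, which control ULK1 and TFEB, had a median of 0.0076 with 14 below 0. LAMTOR5, part of the Ragulator complex that anchors mTORC1, had 36.0, 33.3 and 33.1 CPM in wild type and 42.8, 37.2 and 44.4 CPM with overexpression and a log2 fold change of 0.28 (95% interval 0.043 to 0.52). Of 5 other transcription factors 4 were tested, with a median of 0.0027 and 2 below 0. MITF, a relative of TFEB, had 8.29, 7.70 and 6.11 CPM in wild type and 8.68, 11.1 and 8.43 CPM with overexpression and a log2 fold change of 0.35 (95% interval -0.084 to 0.79). None of these named genes passed (edgeR adjusted p = 0.93 for each). Over all 6 further lists, 8 of 121 genes were higher in every overexpression library than in any wild-type library, among them these 5, and 8 were lower in every one, 6.61% each way against 4.91% and 4.25% of all tested genes. Of the 8 lower, 7 belonged to the lysosomal enzymes and transporters, and VPS39, a subunit of the HOPS tethering complex, belonged to the fusion genes and is named after its values were seen.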

How the data were processed

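Per the labels' protocols, ribosomal RNA was removed from total RNA and libraries came from a TruSeq RNA v2 kit, which does not mark strand. The submitters' processing notes name Trim Galore 0.4.4 and hg38. Which aligner, counter and annotation were used is not given in the sources used. Raw counts per Ensembl gene were deposited by the authors for 60564 genes. A second deposited table holds, for 35778 genes, the log2 of each count over a sample constant, with 1 added before the log.

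Counts were tested with edgeR 4.0.16 in R 4.3.3: TMM scaling, filterByExpr (minimum count 10, 18797 genes kept), the robust quasi-likelihood F-test on group, and Benjamini-Hochberg adjustment over all tested genes (threshold 0.05). The SE was the log2 fold change over the square root of F, and 95% intervals used the test's degrees of freedom. The fit was tested on simulated data. Alternatives used DESeq2 1.42.0, limma 3.58.1 and other scalings, filters and sample sets. Gene positions and exon lengths came from GENCODE 29, per kilobase values using its basic transcripts. Promoters and their starts came from RefSeq.

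The members and lists were chosen with earlier results of these data known, and no set test was run. Values in every library were given for members with non-overlapping groups, for the smallest p and highest level of each role, for the largest changes, and for TFEB and TFE3. Same-numbered samples deviated together from their group means (correlations over genes 0.242, 0.327 and 0.190). A fit with a block for the number was therefore run as an alternative, although no label states that the numbers mark pairs. The main fit had no block, so its SEs, intervals and p-values are unpaired. No pair of libraries matched within sampling noise (lowest chi-square per degree of freedom 12.6).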

Additional observations from a re-analysis of the deposited data

How the results depend on the processing

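No member passed an adjusted p of 0.05 under any of 14 other settings, and the smallest adjusted p in any of them was 0.23, without overexpression replicate 1. Of 574 member values under these settings 540 kept their direction. Over all genes, DESeq2 called 9 genes, limma called 12 on the deposited log2 values, and edgeR with the replicate block called 1, against 2 in edgeR without it. Leaving out each library gave 1 to 3. The block changed no call among the members. The median of the autophagosome genes ranged from -0.0086 to 0.053 when each library was left out, that of the lysosome genes from -0.13 to -0.0050, and that of the V-ATPase from -0.038 to 0.12. The medians of the other lists ranged from -0.049 to 0.063 (receptors), -0.025 to 0.053 (further autophagosome genes), -0.0054 to 0.022 (nutrient signalling), -0.033 to 0.042 (transcription factors) and -0.16 to -0.072 (further lysosomal enzymes). Shares within the ATG8 family with full exon lengths were chosen after seeing the data. The changes of direction concerned estimates of 0.18 or less in size, and the cause was not tested. With library size alone the log2 fold change was 0.0080 for ATG14, 0.0044 for ATG2B, 0.013 for WIPI2, 0.013 for GABARAP and 0.011 for LAMP1. LAMP1 was also 0.0065 with limma-voom, 0.0014 with the replicate block and 0.0020 on the deposited log2 table. Leaving out each library gave log2 fold changes of -0.031 to 0.13 for RB1CC1, -0.13 to 0.054 for ATG14, -0.086 to 0.041 for PIK3C3, -0.016 to 0.21 for PIK3R4, -0.061 to 0.0019 for ATG2B. It gave -0.087 to 0.036 for WIPI2, -0.060 to 0.14 for ATG3, -0.020 to 0.20 for ATG5, -0.035 to 0.33 for ATG10, -0.035 to 0.16 for ATG16L1. It gave -0.11 to 0.067 for GABARAP, -0.38 to 0.028 for TFEB, -0.17 to 0.13 for LAMP1, -0.13 to 0.021 for CTSL and -0.22 to 0.011 for GLA. The 3 samples per group and the spread between them limit the precision, and counting error adds most for the genes with fewest counts. The lowest counts belonged to MAP1LC3A, TFEB and ATG10, whose intervals were among the widest.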
